A study of Mus musculus with 58 samples.

Results

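The genes described here are 37 genes of blood vessel endothelium and of the growth factors that act on it, out of 18820 genes measured. They were chosen by name from textbook knowledge of endothelium, with earlier results of these data known. A gene was taken from the probe set whose single symbol was a listed name. All 37 were measured, each with 1 probe set. By role they comprised 15 endothelial identity and surface genes, 5 receptors and coreceptors of vascular endothelial growth factor (VEGF), 5 endothelial transcription factors, 3 anticoagulant receptors and nitric oxide synthase, 5 growth factors and 4 adhesion molecules of activated endothelium.

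The study asked whether whole-body vibration training (WBV) alters the wasting that a colon tumour causes in muscle. RNA of m. extensor digitorum longus (EDL, a fast muscle), m. soleus (SOL, a slow muscle) and heart was hybridised to arrays. The mice were male CD2F1 (BALB/c x DBA/2), 6 to 8 weeks old per the methods, housed singly. T mice carried C26 cells, a mouse colon adenocarcinoma line, placed under the skin of the flank, whereas C mice were injected with buffer alone. C + WBV and T + WBV mice were also put on a vibrating platform each day (15 min, 45 Hz, 1.0 g), and all mice were killed at day 19. There were 23 arrays of EDL, 23 of SOL and 12 of heart. A muscle had 1 array per mouse, 6 each for C, for C + WBV and for T and 5 for T + WBV, and heart had 3 of each group from mice whose muscles were also measured. The tumour is a transplanted cell line in 1 inbred cross, and the hearts came from a subset of the mice. Robust multi-array analysis (RMA), the authors' normalization, sets the arrays to one distribution, so their medians (4.52 to 4.60 on the log2 scale) cannot show whether an array stood apart, and the number of arrays limits the precision. The tissue labels were checked on single genes between tissues. Myh4 ran from 12.40 to 13.02 in EDL and from 2.82 to 3.58 in heart, Myh7 from 12.00 to 12.48 in SOL and from 4.00 to 9.18 in EDL, and Tnni3 from 12.49 to 12.83 in heart and from 4.10 to 5.03 in SOL.

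Endothelial cells line every vessel, and the capillaries of muscle and heart lie against the fibres they supply. VEGF-A made by muscle cells binds the receptor KDR, which carries most of its signal, and FLT1, which binds the same ligand tightly with a weaker signal of its own. Angiopoietin-1, from cells around the vessel, activates the receptor TEK and keeps vessels quiet, while angiopoietin-2, from the endothelium itself, can oppose it. Activated endothelium also shows adhesion molecules that catch white blood cells.

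The 37 genes are a list chosen by name, and in whole tissue the arrays cannot show which cells the RNA came from. Cdh5, which encodes the junction protein VE-cadherin and defines endothelium, ran in C from 9.47 to 9.72 (median 9.61) on the log2 scale in EDL and from 9.68 to 9.80 (median 9.78) in SOL, and lay at 10.11, 10.23 and 9.92 in heart. Fewer endothelial cells and less RNA per cell cannot be told apart.

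Some arrays stood apart in these genes. Of the SOL arrays, T replicate 1 had the lowest endothelial identity level, on average below the mean of C by -0.20 on the log2 scale, and its VEGF receptors differed by -0.65. The mouse numbered T + WBV replicate 2 was nearest to controls, with a body mass at day 19 of 100.9% in the labels against 75.9 to 87.8% in the other 4 T + WBV mice. The same mouse gave an array of each tissue. Measured from the mean of C of its own tissue, its heart had the lowest identity shift of all arrays (-0.25). Counts without these arrays are given beside the counts they change. Among T mice, replicate 3 of both muscles was 1 mouse with a body mass of 91.0%, against 77.5 to 82.6% in the others. Among other genes, it gave the highest T array of Angpt1, Kdr, Nrp1, Vegfb and Vcam1 in EDL and SOL and of Vegfa in SOL. The part of body mass in this was not tested, and heart T replicate 3 came from another mouse.

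Promoter sequences were on hand for 21 of the 37 genes, as the 250 bases before the gene start in RefSeq (mouse build GRCm38.p6). Those of Kdr, Flt1 and Vegfb are shown because these genes changed in T in all 3 tissues, and that of Prnd because it had the largest fall. Capitals mark every match to a searched motif on either strand. The motifs were an ETS core (AGGAAG), a SOX core (ATTGTT), an NF-kB site (GGG, any 2 bases, TTTCC) and the core of the hypoxia response element (ACGTG). Each sequence is written 5′ to 3′ on the strand of its gene, which is the minus strand for Kdr (chr5:75978456-75978705), Flt1 (chr5:147726012-147726261) and Vegfb (chr19:6987652-6987901) and the plus strand for Prnd (chr2:131950611-131950860).
Kdr: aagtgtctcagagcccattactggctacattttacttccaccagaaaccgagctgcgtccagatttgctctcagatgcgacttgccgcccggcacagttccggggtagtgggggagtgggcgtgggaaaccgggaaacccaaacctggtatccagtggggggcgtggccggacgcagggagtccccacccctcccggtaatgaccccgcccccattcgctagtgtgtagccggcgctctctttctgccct
Flt1: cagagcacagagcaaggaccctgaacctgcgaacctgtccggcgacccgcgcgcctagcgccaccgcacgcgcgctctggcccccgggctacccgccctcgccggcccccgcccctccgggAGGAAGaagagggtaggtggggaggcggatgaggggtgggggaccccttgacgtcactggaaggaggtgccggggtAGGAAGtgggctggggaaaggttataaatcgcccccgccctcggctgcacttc
Vegfb: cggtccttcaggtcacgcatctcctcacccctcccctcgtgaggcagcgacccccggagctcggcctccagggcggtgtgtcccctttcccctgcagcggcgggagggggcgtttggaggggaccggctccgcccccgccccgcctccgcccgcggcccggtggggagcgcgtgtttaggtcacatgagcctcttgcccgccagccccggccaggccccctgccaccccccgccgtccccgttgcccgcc
Prnd: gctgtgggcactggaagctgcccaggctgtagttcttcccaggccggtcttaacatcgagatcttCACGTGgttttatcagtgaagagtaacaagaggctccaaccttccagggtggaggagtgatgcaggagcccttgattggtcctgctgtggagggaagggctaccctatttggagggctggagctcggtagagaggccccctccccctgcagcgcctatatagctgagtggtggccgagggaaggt
Kdr and Flt1, both on chromosome 5, differed in this window. Flt1 held AGGAAG starting 129 and 53 bases before the start, whereas Kdr and Vegfb held none of the 4 motifs. Prnd held ACGTG on both strands at the same place, at 185 and 184 bases before the start, where the matches overlap. The 21 genes have 27 promoter entries, since some have several starts. AGGAAG was found in 11 of the 27 and in 29.5% of all 32851 promoters of this length. ATTGTT was in 3 of the 27 (9.42% of all), ACGTG in 2, of Prnd and Vegfa (16.6% of all), and the NF-kB site in 1, at a second start of Prnd (1.41% of all). A match is a description of the letters and not a measured binding site.

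Most of the endothelial genes had their highest level in heart, the tissue with the densest capillaries of the 3. In C mice, 28 of the 37 genes were higher in heart than in EDL and 1 was lower (adjusted p below 0.01, limma fit of all 58 arrays with the mouse as a random block). Of all genes, 31.9% passed in that comparison, 19% as higher and 12.9% as lower. Between heart and SOL, 24 were higher in heart and 1 was lower, where 25% of all genes passed (15.4% higher, 9.59% lower). SOL was higher than EDL in 7 genes and lower in none, where 13.9% of all genes passed (7.49% higher, 6.44% lower). The median difference of the 37 genes was 0.77 between heart and EDL, 0.54 between heart and SOL and 0.16 between SOL and EDL on the log2 scale.

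The largest tissue difference was that of Vcam1, an adhesion molecule for white blood cells. In C mice Vcam1 ran from 4.91 to 5.39 (median 5.18) in EDL and from 5.45 to 5.92 (median 5.75) in SOL, and lay at 7.11, 6.80 and 7.12 in heart. The 3 tissues did not overlap. The difference was 1.83 ± 0.13 (SE, limma adjusted p = 1.31e-17) between heart and EDL and 0.55 ± 0.10 (SE, limma adjusted p = 4.84e-05) between SOL and EDL. Among the receptors, Kdr was higher in heart than in EDL by 1.36 ± 0.16 (SE, limma adjusted p = 2.26e-10) and did not pass between SOL and EDL. Eng, a coreceptor for transforming growth factor beta, was higher in heart than in SOL by 1.26 ± 0.15 (SE, limma adjusted p = 3.63e-10). Angpt1, the ligand of TEK, was the member that separated the muscles most, at 1.64 ± 0.19 (SE, limma adjusted p = 9.30e-10) above EDL in SOL. Selp, the P-selectin that slows rolling white blood cells, was higher in SOL than in EDL by 1.06 ± 0.20 (SE, limma adjusted p = 3.45e-05). Procr, the endothelial receptor of protein C, was the exception in heart. Its level there differed by -1.12 ± 0.20 (SE, limma adjusted p = 3.81e-06) from EDL and by -1.29 ± 0.20 (SE, limma adjusted p = 2.75e-07) from SOL. Flt1, Sox17, Cldn5 and Vegfa passed in none of these tissue comparisons.

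**Figure D1:**
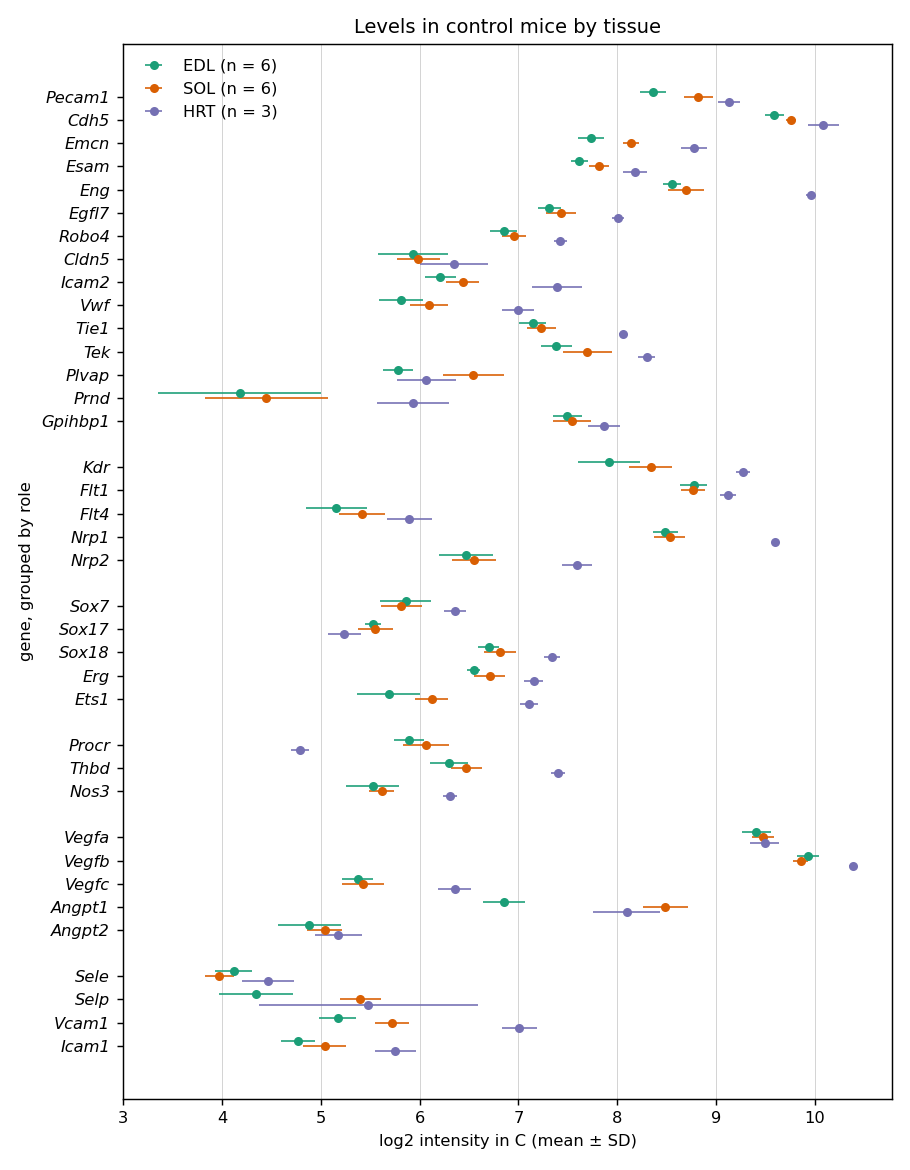
Log2 level of the 37 genes in C mice in EDL (n = 6), SOL (n = 6) and heart (n = 3), with points for the mean and bars for the SD, grouped by role. Most genes lie highest in heart, 28 of them past the threshold against EDL, and Procr lies lowest there.

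In tumour-bearing mice the endothelial genes moved in both directions, so that the list as a whole shifted little. In EDL of T against C, 11 genes rose and 6 fell (limma adjusted p below 0.01 over all 18820 genes), 45.9% of the 37, beside 22.4% of all genes (10.7% rose and 11.6% fell). SOL had 8 rises and 7 falls, 40.5% of the 37, beside 13.7% of all genes (5.06% and 8.66%). Heart had 6 rises and 8 falls, 37.8% of the 37, beside 5.74% of all genes (2.7% and 3.04%). The 37 were chosen with earlier results of these data known, so these shares describe the list and test nothing. Counts of T against C by role group or marker list, given below, are to be read beside the same shares of all genes. Of the 37, 33 (EDL), 34 (SOL) and 33 (heart) lay above the median level of all genes, so the 2 shares also differ in expression level. The median log2 fold change of the 37 in EDL was 0.10, against -0.03 over all genes. For SOL the medians were 0.05 and -0.01, and for heart -0.08 and 0.0043. Flt1, Plvap, Sox17 and Thbd rose in all 3 tissues, and Kdr and Vegfb fell in all 3. The 3 tissues share mice, so these counts are not independent. Another 12 genes passed in no tissue, namely Angpt2, Cldn5, Egfl7, Emcn, Eng, Erg, Nrp2, Robo4, Sele, Sox18, Tek and Tie1. Omitting SOL T replicate 1 gave 11 rises and 5 falls in SOL. In heart, with 3 mice a group, leaving out any 1 of the 6 arrays gave 2 to 4 rises and 3 to 4 falls, the fewest rises without T replicate 2.

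All arrays of T lay above all of C in EDL for 10 of the 37 genes and below for 4, where 15.4% of all genes showed no overlap. In SOL this held for 6 above and 3 below (10.6% of all genes). In heart it held for 13 above and 13 below, beside 32% of all genes, since 3 arrays against 3 separate easily.

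Trained mice gave a second comparison with other animals, T + WBV against C + WBV. There 10 genes rose and 4 fell in EDL, where 11.9% of all genes passed (5.27% rose and 6.6% fell). SOL had 5 rises and 3 falls, where 3.61% of all genes passed (1.94% and 1.66%). Heart had 1 rise and 4 falls, where 1.49% passed (1.01% and 0.478%). In EDL, 9 genes rose in both comparisons, 81.8% of the 11 of T against C and 90% of the 10 here, and 3 fell in both, 50% and 75%. In SOL 4 rises (50% and 80%) and 2 falls (28.6% and 66.7%) were shared. Heart shared 1 rise (16.7% and 100%) and 3 falls (37.5% and 75%). The sign was the same in both comparisons for 32 genes (EDL), 33 (SOL) and 30 (heart). Shared calls and signs were counted for the 37 genes alone, so this agreement is not shown to be particular to them. In EDL, 7 genes of T + WBV lay wholly above C + WBV and 2 wholly below (8.51% of all genes showed no overlap). For SOL it was 4 above and 3 below (4.18%), and for heart 7 and 12 (21.7%). These counts moved with single arrays. Without T + WBV replicate 2, heart had 7 rises and 10 falls, and SOL had 7 and 5. Without T + WBV replicate 1 or 3, SOL had 2 rises, and without C + WBV replicate 4 it had 3. In heart, leaving out any array other than T + WBV replicate 2 gave 0 rises, and the falls were 1, or 5 without C + WBV replicate 2.

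Set against C, the T + WBV arrays of EDL differed in 12 genes, where 11.1% of all genes passed. For SOL it was 6 genes (4.67% of all) and for heart 7 (1.47%). This comparison shares its C mice with T against C. Without T + WBV replicate 2 the counts were 17, 10 and 16. In SOL, leaving out C replicate 1 or T + WBV replicate 3 or 5 gave 3. In heart, leaving out any array other than T + WBV replicate 2 gave 1 to 3.

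**Figure D2:**
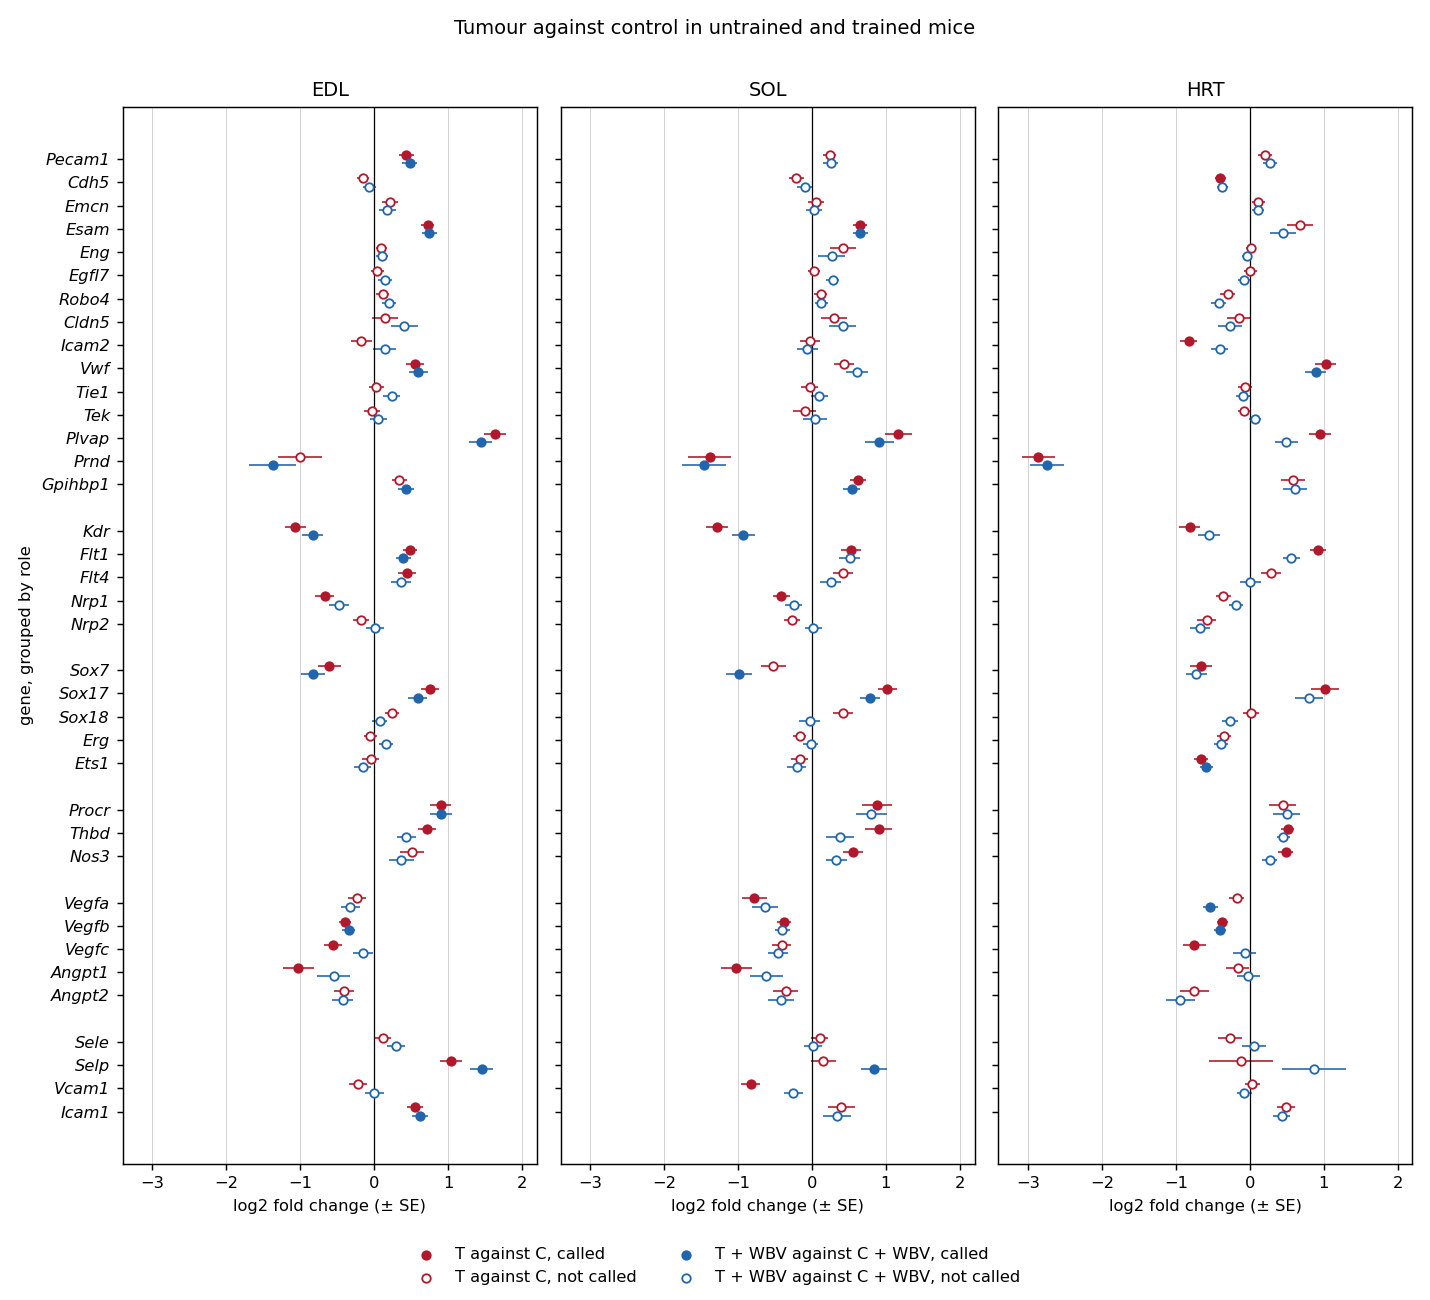
Log2 fold change of each of the 37 genes in EDL, SOL and heart, with bars for the SE, grouped by role. Red is T against C and blue T + WBV against C + WBV, and filled points passed an adjusted p of 0.01. Plvap, Flt1, Sox17 and Thbd lie to the right in red in all 3 tissues and Kdr and Vegfb to the left, and Prnd in heart lies at -2.86.

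Of the 5 growth factors none rose in T in any tissue. Their fold changes were below 0 in all 3 tissues, with medians of -0.40 for EDL, -0.41 for SOL and -0.37 for heart. In EDL, Vegfb, Vegfc and Angpt1 fell, in SOL Vegfa, Vegfb and Angpt1, and in heart Vegfb and Vegfc. In T + WBV against C + WBV, 1 fell in EDL (Vegfb), 0 in SOL and 2 in heart (Vegfa and Vegfb). The Vegfb call in EDL was lost without C + WBV replicate 1, 2, 3 or 5 or T + WBV replicate 1, 4 or 5, and with a fit of the compared groups alone (adjusted p up to 0.0302), and that in heart without C + WBV replicate 1, 2 or 3 or T + WBV replicate 1 or 3, and with 1 prior variance, a fit of the compared groups alone, a joint fit of the 58 arrays, a second quantile normalization or the replicate number as a block (up to 0.0628). For the 0 in SOL, 5 of the 5 had an unadjusted p below 0.05.

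Angpt1, the ligand that quiets endothelium through TEK, fell in both muscles. EDL arrays ran from 6.44 to 7.03 (median 6.90) in C and from 4.89 to 6.93 (median 5.69) in T. The highest T array, T replicate 3, reached into the range of C. It fell 2.03-fold (log2 fold change -1.02 ± 0.21 (SE), limma adjusted p = 0.000563). SOL arrays ran from 8.17 to 8.73 (median 8.58) in C and from 6.73 to 8.54 (median 7.49) in T, again with an overlap. The fall there was 2.03-fold (log2 fold change -1.02 ± 0.21 (SE), limma adjusted p = 0.00104). Heart had 8.10, 8.44 and 7.75 in C and 7.66, 8.17 and 7.96 in T. These overlapped, and the fold change was -0.17 ± 0.16 (SE, adjusted p = 0.578).

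Among trained mice the difference in Angpt1 did not pass. In EDL the C + WBV arrays ran from 6.45 to 6.96 (median 6.72), and the T + WBV arrays lay at 6.04, 6.80, 6.33, 5.89 and 5.92. In SOL the corresponding values were from 8.25 to 8.82 (median 8.36) and at 7.74, 8.40, 7.55, 7.77 and 7.59. In each muscle T + WBV replicate 2 was the highest of its group. The fold change of T + WBV against C + WBV was -0.55 ± 0.22 (SE, adjusted p = 0.088) in EDL and -0.62 ± 0.22 (SE, adjusted p = 0.0859) in SOL. In heart the T + WBV arrays lay at 8.08, 7.81 and 8.20 and the C + WBV arrays at 8.09, 7.96 and 8.11, a fold change of -0.02 ± 0.16 (SE, adjusted p = 0.968).

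Angpt2, the angiopoietin made by the endothelium itself, passed in no tissue. EDL ran from 4.50 to 5.39 (median 4.88) in C and from 4.30 to 4.85 (median 4.44) in T (log2 fold change -0.40 ± 0.14 (SE), limma adjusted p = 0.0245). SOL ran from 4.81 to 5.27 (median 5.07) in C and from 4.40 to 4.89 (median 4.65) in T (log2 fold change -0.35 ± 0.17 (SE), limma adjusted p = 0.136). The groups overlapped in both muscles. Heart had 5.14, 5.43 and 4.97 in C and 4.36, 4.37 and 4.56 in T, with T below C (log2 fold change -0.75 ± 0.19 (SE), limma adjusted p = 0.0191). For T + WBV against C + WBV the fold change was -0.42 ± 0.14 (SE, adjusted p = 0.0348) for EDL, -0.42 ± 0.17 (SE, adjusted p = 0.145) for SOL and -0.94 ± 0.19 (SE, adjusted p = 0.0126) for heart. The T + WBV arrays of EDL lay at 4.33, 4.35, 4.96, 4.33 and 4.37, those of SOL at 4.87, 4.83, 4.86, 4.73 and 4.71 and those of heart at 4.33, 4.99 and 4.55. In EDL T + WBV replicate 3 was far above the other 4. The C + WBV arrays ran from 4.59 to 5.07 (median 4.92) in EDL and from 4.29 to 5.74 (median 5.44) in SOL, and lay at 5.78, 5.18 and 5.73 in heart.

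Vegfa, the main VEGF of muscle fibres, fell in SOL. Its arrays ran from 9.27 to 9.58 (median 9.52) in C and from 7.92 to 9.31 (median 8.77) in T, with the highest T array inside the range of C. The fall was 1.72-fold (log2 fold change -0.78 ± 0.17 (SE), limma adjusted p = 0.0014). The EDL arrays ran from 9.23 to 9.60 (median 9.39) in C and from 8.78 to 9.47 (median 9.30) in T, and in heart it lay at 9.55, 9.61 and 9.33 in C and at 9.21, 9.35 and 9.40 in T. Both overlapped, with fold changes of -0.23 ± 0.12 (SE, adjusted p = 0.167) and -0.18 ± 0.10 (SE, adjusted p = 0.299). The difference of these effects between tissues did not pass. Heart had a fall in the trained mice, from 9.86, 9.59 and 9.85 in C + WBV to 9.23, 9.40 and 9.08 in T + WBV (log2 fold change -0.53 ± 0.10 (SE), limma adjusted p = 0.00924). That call was lost without C + WBV replicate 1 or 3 or T + WBV replicate 1 or 3, and with 1 prior variance, a fit of the compared groups alone, a joint fit of the 58 arrays, a second quantile normalization or the replicate number as a block (adjusted p up to 0.109). In SOL the C + WBV arrays ran from 9.33 to 9.85 (median 9.72) and the T + WBV arrays lay at 9.28, 9.54, 8.55, 8.85 and 8.97 (log2 fold change -0.64 ± 0.18 (SE), limma adjusted p = 0.0227). EDL had from 9.33 to 9.61 (median 9.51) in C + WBV and values at 9.07, 9.41, 9.50, 9.13 and 8.76 in T + WBV (log2 fold change -0.32 ± 0.13 (SE), limma adjusted p = 0.0788).

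Vegfb, a ligand of FLT1 in tissues that burn fat, fell by a like amount in each tissue. Its log2 fold change was -0.39 ± 0.08 (SE, adjusted p = 0.00066) for EDL, -0.38 ± 0.10 (SE, adjusted p = 0.00464) for SOL and -0.37 ± 0.08 (SE, adjusted p = 0.00633) for heart. The EDL call held without any 1 array. The SOL call was lost without C replicate 1, 4 or 5 or T replicate 1, 2 or 5 (adjusted p up to 0.016), and the heart call without C replicate 1, 2 or 3 or T replicate 1 or 2, and with 1 prior variance, a joint fit of the 58 arrays, a second quantile normalization or the replicate number as a block (up to 0.0366). Vegfc, the ligand of lymphatic growth, changed in EDL by -0.55 ± 0.12 (SE, adjusted p = 0.00107) and in heart by -0.75 ± 0.15 (SE, adjusted p = 0.00575), the latter lost without any 1 of the 6 arrays, and with 1 prior variance (up to 0.0294).

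Both VEGF-A receptors changed in T, in opposite directions and in all 3 tissues. Kdr, the main signalling receptor, fell. In EDL it ran from 7.54 to 8.29 (median 7.92) in C and from 6.47 to 7.35 (median 6.86) in T. Every T array lay below every C array. The fall was 2.09-fold (log2 fold change -1.06 ± 0.14 (SE), limma adjusted p = 5.42e-06). In SOL the arrays ran from 8.05 to 8.68 (median 8.35) in C and from 6.62 to 7.52 (median 7.07) in T, without overlap. The fall was 2.43-fold (log2 fold change -1.28 ± 0.15 (SE), limma adjusted p = 2.60e-06). In heart Kdr lay at 9.20, 9.35 and 9.27 in C and at 8.58, 8.34 and 8.46 in T, also without overlap. It fell 1.76-fold (log2 fold change -0.81 ± 0.14 (SE), limma adjusted p = 0.0026). The heart call was lost without C replicate 2 or 3 or T replicate 2 or 3 (adjusted p up to 0.0166).

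Flt1, the tight binder of VEGF-A, rose. The arrays of EDL ran from 8.59 to 8.94 (median 8.82) in C and from 8.97 to 9.44 (median 9.30) in T, just without overlap. The rise was 1.40-fold (log2 fold change 0.48 ± 0.09 (SE), limma adjusted p = 0.000273). Those of SOL ran from 8.61 to 8.99 (median 8.75) in C and from 8.71 to 9.57 (median 9.46) in T. The lowest T array, T replicate 1, lay inside the range of C. The rise was 1.44-fold (log2 fold change 0.53 ± 0.13 (SE), limma adjusted p = 0.00492), and it was lost without C replicate 1, 3, 5 or 6 or T replicate 2, 4, 5 or 6 (adjusted p up to 0.016). In heart Flt1 lay at 9.16, 9.03 and 9.18 in C and at 9.87, 10.13 and 10.12 in T. Every T array was above every C array, by 1.89-fold (log2 fold change 0.92 ± 0.11 (SE), limma adjusted p = 0.000389).

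In trained mice Kdr again fell in both muscles. The C + WBV arrays of EDL ran from 7.81 to 7.97 (median 7.89) and the T + WBV arrays lay at 7.12, 7.49, 6.92, 6.76 and 6.94 (log2 fold change -0.83 ± 0.15 (SE), limma adjusted p = 0.000355). In SOL they ran from 8.12 to 8.61 (median 8.30) and lay at 7.61, 7.77, 7.21, 6.84 and 7.55 (log2 fold change -0.93 ± 0.15 (SE), limma adjusted p = 0.000611). Neither muscle overlapped. Heart had 9.30, 9.24 and 9.40 in C + WBV and 8.58, 9.22 and 8.48 in T + WBV, where the second value is T + WBV replicate 2 (log2 fold change -0.55 ± 0.14 (SE), limma adjusted p = 0.0372). Flt1 rose in EDL, from a range of 8.57 to 9.00 (median 8.81) in C + WBV to 8.93, 9.17, 9.47, 9.14 and 9.23 in T + WBV (log2 fold change 0.40 ± 0.10 (SE), limma adjusted p = 0.00531). That call was lost without C + WBV replicate 1, 4 or 6 or T + WBV replicate 3, 4 or 5, and with a fit of the compared groups alone or the replicate number as a block (adjusted p up to 0.024). In SOL Flt1 ran from 8.56 to 9.22 (median 8.69) in C + WBV and lay at 9.34, 9.07, 9.51, 9.04 and 9.41 in T + WBV (log2 fold change 0.51 ± 0.14 (SE), limma adjusted p = 0.0203). In heart it lay at 9.26, 9.16 and 9.23 in C + WBV and at 9.93, 9.47 and 9.94 in T + WBV (log2 fold change 0.56 ± 0.11 (SE), limma adjusted p = 0.0103).

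Array by array, the shift of Flt1 minus the shift of Kdr, each from its mean in C of that tissue, separated tumour-bearing mice from C. In EDL this quantity ran from -0.55 to 0.43 (median 0.11) in C and from 0.77 to 1.92 (median 1.65) in T. In SOL it ran from -0.36 to 0.28 (median 0.04) in C and from 1.1 to 2.14 (median 1.96) in T. In heart it ran from -0.17 to 0.11 in C and from 1.44 to 1.95 in T. The lowest tumour-bearing array of all was T + WBV replicate 2 in heart, at 0.40. Of the 28 arrays of T and T + WBV, 27 had Kdr below and Flt1 above the mean of C, the exception being SOL T replicate 1, in which both were below. Several control arrays met this criterion too, such as EDL C replicate 2 (Kdr -0.38, Flt1 0.04) and EDL C + WBV replicate 2 (-0.05 and 0.22). Among the 27, heart T + WBV replicate 2 had Kdr at only -0.05. The criterion alone therefore does not set tumour-bearing mice apart. The difference of the 2 shifts was formed after the opposite changes were seen and carries no test.

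**Figure D3:**
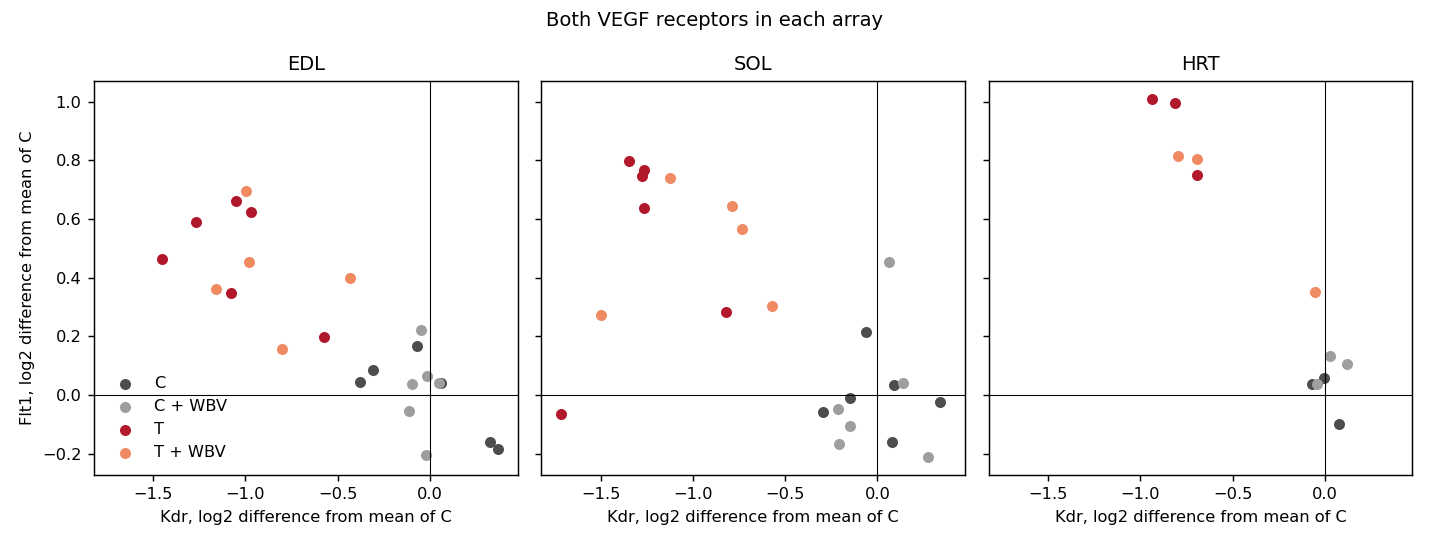
Difference of Kdr (horizontal axis) and of Flt1 (vertical axis) from the mean of C of the same tissue, on the log2 scale, with 1 point for each array of EDL, SOL and heart, coloured by group. Arrays of T and T + WBV lie in the upper left (27 of 28), and those of C and C + WBV around 0, several of them also in the upper left.

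The other receptors of the group were less uniform. Nrp1, a coreceptor that strengthens KDR signalling, fell in EDL (log2 fold change -0.67 ± 0.13 (SE), limma adjusted p = 0.000296) and in SOL (log2 fold change -0.41 ± 0.11 (SE), limma adjusted p = 0.0086). The SOL call was lost without C replicate 1, 2, 3, 4 or 6 or T replicate 1, 2, 4 or 6, and with 1 prior variance or a fit of the compared groups alone (adjusted p up to 0.0264). Flt4, the receptor of VEGF-C, rose in EDL (log2 fold change 0.44 ± 0.12 (SE), limma adjusted p = 0.00731), a call lost without C replicate 2, 3 or 5 or T replicate 1, 2, 4, 5 or 6, and with a fit of the compared groups alone or the replicate number as a block (up to 0.026). Nrp2 did not pass, with the nearest value in heart (log2 fold change -0.58 ± 0.13 (SE), limma adjusted p = 0.0101). The medians of the 5 receptors were -0.17, -0.27 and -0.36 in EDL, SOL and heart.

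Tek, the angiopoietin receptor, passed in no tissue. EDL arrays of Tek ran from 7.15 to 7.55 (median 7.46) in C and from 7.16 to 7.66 (median 7.34) in T, and in SOL from 7.45 to 8.16 (median 7.63) in C and from 7.16 to 8.06 (median 7.59) in T. Heart had 8.37, 8.32 and 8.20 in C and 8.10, 8.36 and 8.20 in T. All of these overlapped. The fold changes were -0.02 ± 0.11 (SE, adjusted p = 0.908) for EDL, -0.10 ± 0.16 (SE, adjusted p = 0.735) for SOL and -0.08 ± 0.08 (SE, adjusted p = 0.601) for heart. In trained mice Tek ran from 7.21 to 7.65 (median 7.36) in C + WBV and lay at 7.38, 7.72, 7.09, 7.46 and 7.61 in T + WBV of EDL. SOL ran from 7.40 to 8.14 (median 7.68) and lay at 7.97, 8.15, 7.55, 7.32 and 7.80, and in heart it lay at 8.20, 8.27 and 8.30 and at 8.40, 8.31 and 8.27. The fold changes of T + WBV against C + WBV were 0.06 ± 0.11 (SE, adjusted p = 0.796), 0.05 ± 0.16 (SE, adjusted p = 0.91) and 0.07 ± 0.08 (SE, adjusted p = 0.696). Tie1, its partner receptor, had fold changes of 0.03, -0.03 and -0.07 in T against C.

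Of the 15 identity and surface genes, 4 rose and none fell in EDL. SOL had 3 rises and 1 fall, heart 2 rises and 3 falls. For the 0 falls in EDL, 1 gene (Prnd) was below C with an unadjusted p below 0.05. Their medians were 0.12, 0.12 and 0.01. The mean shift of these genes from C was 0.20 ± 0.10 (SD, n = 6) in EDL of T, 0.15 ± 0.18 (SD, n = 6) in SOL and -0.07 ± 0.02 (SD, n = 3) in heart. In T + WBV it was 0.23 ± 0.11 (SD, n = 5), 0.13 ± 0.13 (SD, n = 5) and -0.12 ± 0.12 (SD, n = 3). These means include Prnd, which in heart lay at 5.59 to 6.31 in C and at 2.98 to 3.20 in T. They were not formed without it, so the negative heart means are not shown to be a fall of the identity genes as a set.

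Plvap, which forms the diaphragms of endothelial pores and caveolae, had the largest rise. In EDL its level ran from 5.66 to 6.07 (median 5.72) in C and from 7.22 to 7.81 (median 7.39) in T. Every T array was above every C array, by 3.11-fold on average (log2 fold change 1.64 ± 0.15 (SE), limma adjusted p = 9.63e-08). In SOL its level ran from 6.05 to 6.96 (median 6.53) in C and from 6.94 to 8.13 (median 7.82) in T. The lowest T array lay just inside the range of C, and the rise was 2.25-fold (log2 fold change 1.17 ± 0.19 (SE), limma adjusted p = 7.85e-05). In heart it lay at 6.25, 6.23 and 5.72 in C and at 6.93, 7.22 and 6.91 in T. The heart rise was 1.93-fold (log2 fold change 0.95 ± 0.15 (SE), limma adjusted p = 0.00146), with an adjusted p of 0.0107 without T replicate 2.

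In trained mice Plvap rose in both muscles. EDL ran from 5.35 to 6.14 (median 5.75) in C + WBV and lay at 7.25, 6.63, 7.21, 7.83 and 7.25 in T + WBV (log2 fold change 1.44 ± 0.16 (SE), limma adjusted p = 1.89e-06). SOL ran from 6.22 to 6.92 (median 6.50) and lay at 7.93, 7.14, 7.78, 6.96 and 7.53 (log2 fold change 0.91 ± 0.19 (SE), limma adjusted p = 0.00423). Neither muscle overlapped. The SOL call was lost without C + WBV replicate 1 or 4 or T + WBV replicate 1, 3 or 5, and with a fit of the compared groups alone or the array name suffix as a covariate (adjusted p up to 0.0215). Heart had 6.24, 6.13 and 6.16 in C + WBV and 6.58, 6.46 and 6.96 in T + WBV (log2 fold change 0.49 ± 0.15 (SE), limma adjusted p = 0.0724).

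Prnd, which encodes doppel, a surface protein of growing and tumour vessels, had the largest fall. In heart it lay at 5.89, 6.31 and 5.59 in C and at 3.03, 2.98 and 3.20 in T. The groups were far apart, and the fall was at least 7.27-fold (log2 fold change -2.86 ± 0.23 (SE), limma adjusted p = 3.92e-05). In SOL it ran from 3.59 to 5.18 (median 4.32) in C and from 2.60 to 3.55 (median 3.08) in T, without overlap (log2 fold change -1.38 ± 0.29 (SE), limma adjusted p = 0.00106). The EDL arrays of Prnd ran from 2.96 to 5.34 (median 4.32) in C and from 2.93 to 3.33 (median 3.22) in T. These overlapped, with C spread widely, and the change missed the threshold (log2 fold change -1.004 ± 0.30 (SE), limma adjusted p = 0.0109). The T arrays of Prnd lay as low as genes of other tissues, such as Myh4 in heart (2.82 to 3.58) and Myl7, an atrial gene, in SOL (2.46 to 3.73), and were not separated from background. The changes of Prnd given here are therefore lower bounds.

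Trained mice showed the fall of Prnd in all 3 tissues. EDL ran from 3.45 to 5.15 (median 4.77) in C + WBV and lay at 2.88, 2.94, 3.23, 3.30 and 3.19 in T + WBV (log2 fold change -1.37 ± 0.31 (SE), limma adjusted p = 0.00278). SOL ran from 3.26 to 5.21 (median 4.73) and lay at 3.05, 3.02, 2.88, 3.17 and 2.96 (log2 fold change -1.46 ± 0.30 (SE), limma adjusted p = 0.00351), and the call was lost without C + WBV replicate 1 or T + WBV replicate 3 or 5, and with a fit of the compared groups alone (adjusted p up to 0.0182). Heart had 5.81, 5.49 and 6.02 in C + WBV and 2.57, 3.49 and 3.05 in T + WBV (log2 fold change -2.74 ± 0.23 (SE), limma adjusted p = 6.47e-05). No T + WBV array reached the range of C + WBV in any tissue.

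Vwf, the clotting factor stored in endothelial granules and in platelets, rose in EDL and in heart. In heart it lay at 7.17, 6.96 and 6.86 in C and at 8.03, 8.00 and 8.05 in T. The groups stood clear of each other, by 2.04-fold (log2 fold change 1.03 ± 0.14 (SE), limma adjusted p = 0.000619). In EDL it ran from 5.58 to 6.16 (median 5.82) in C and from 6.15 to 6.60 (median 6.35) in T, with a narrow overlap (log2 fold change 0.55 ± 0.12 (SE), limma adjusted p = 0.000968). In SOL it ran from 5.73 to 6.29 (median 6.15) in C and from 5.83 to 6.81 (median 6.64) in T, where T replicate 1 was the lowest T array (log2 fold change 0.43 ± 0.14 (SE), limma adjusted p = 0.0277). In trained mice it lay at 7.00, 6.97 and 7.14 in C + WBV and at 8.13, 7.51 and 8.16 in T + WBV of heart (log2 fold change 0.89 ± 0.14 (SE), limma adjusted p = 0.00321), a call lost without C + WBV replicate 1, 2 or 3 or T + WBV replicate 1 or 3, and with 1 prior variance or a fit of the compared groups alone (adjusted p up to 0.034). EDL ran from 5.35 to 5.91 (median 5.74) in C + WBV and lay at 6.30, 6.22, 5.91, 6.69 and 6.34 in T + WBV (log2 fold change 0.60 ± 0.13 (SE), limma adjusted p = 0.00174). SOL ran from 5.86 to 6.04 (median 6.01) and lay at 6.94, 6.28, 6.63, 6.31 and 6.85 (log2 fold change 0.61 ± 0.15 (SE), limma adjusted p = 0.0103). Some platelet markers rose as well, where 10.7% (EDL), 5.06% (SOL) and 2.7% (heart) of all genes rose. Of the 6 measured of 8, 2 rose in each muscle and 3 in heart, led by Ppbp (1.56, 1.80 and 1.48), a platelet chemokine. Their summed level on the log2 scale ran from 7.05 to 7.18 in C and from 7.52 to 7.74 in T of EDL, from 7.19 to 7.42 and from 7.65 to 8.18 in SOL, and from 9.01 to 9.39 and from 10.18 to 10.64 in heart. Their part in the rise of Vwf was not tested.

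Esam, a junction adhesion molecule, rose in EDL (log2 fold change 0.72 ± 0.09 (SE), limma adjusted p = 4.33e-06) and SOL (log2 fold change 0.65 ± 0.09 (SE), limma adjusted p = 2.84e-05), while heart had 0.68 ± 0.17 (SE, adjusted p = 0.0192). Pecam1, the junction protein CD31, rose in EDL (log2 fold change 0.44 ± 0.10 (SE), limma adjusted p = 0.00104). Gpihbp1, which carries lipoprotein lipase to the capillary lumen, rose in SOL (log2 fold change 0.63 ± 0.11 (SE), limma adjusted p = 0.000162). In heart Icam2, a constitutive adhesion molecule, fell 1.78-fold (log2 fold change -0.83 ± 0.11 (SE), limma adjusted p = 0.000619). Cdh5 fell there too (log2 fold change -0.40 ± 0.07 (SE), limma adjusted p = 0.00316), a call lost without C replicate 1 or 2 or T replicate 1, 2 or 3, and with 1 prior variance or a joint fit of the 58 arrays (adjusted p up to 0.0365). In trained mice Esam rose in both muscles (0.75 and 0.66), Pecam1 in EDL (0.48) and Gpihbp1 in both (0.44 and 0.54). Gpihbp1 lost its EDL call without C + WBV replicate 3, 5 or 6 or T + WBV replicate 1, 3 or 4, and with a fit of the compared groups alone, and its SOL call without C + WBV replicate 4 or T + WBV replicate 1, 3 or 4, and with a fit of the compared groups alone or the array name suffix as a covariate (adjusted p up to 0.0254). The genes Emcn, Eng, Egfl7, Robo4, Cldn5, Tie1 and Tek did not pass in T against C, with log2 fold changes from -0.30 to 0.42.

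**Figure D4:**
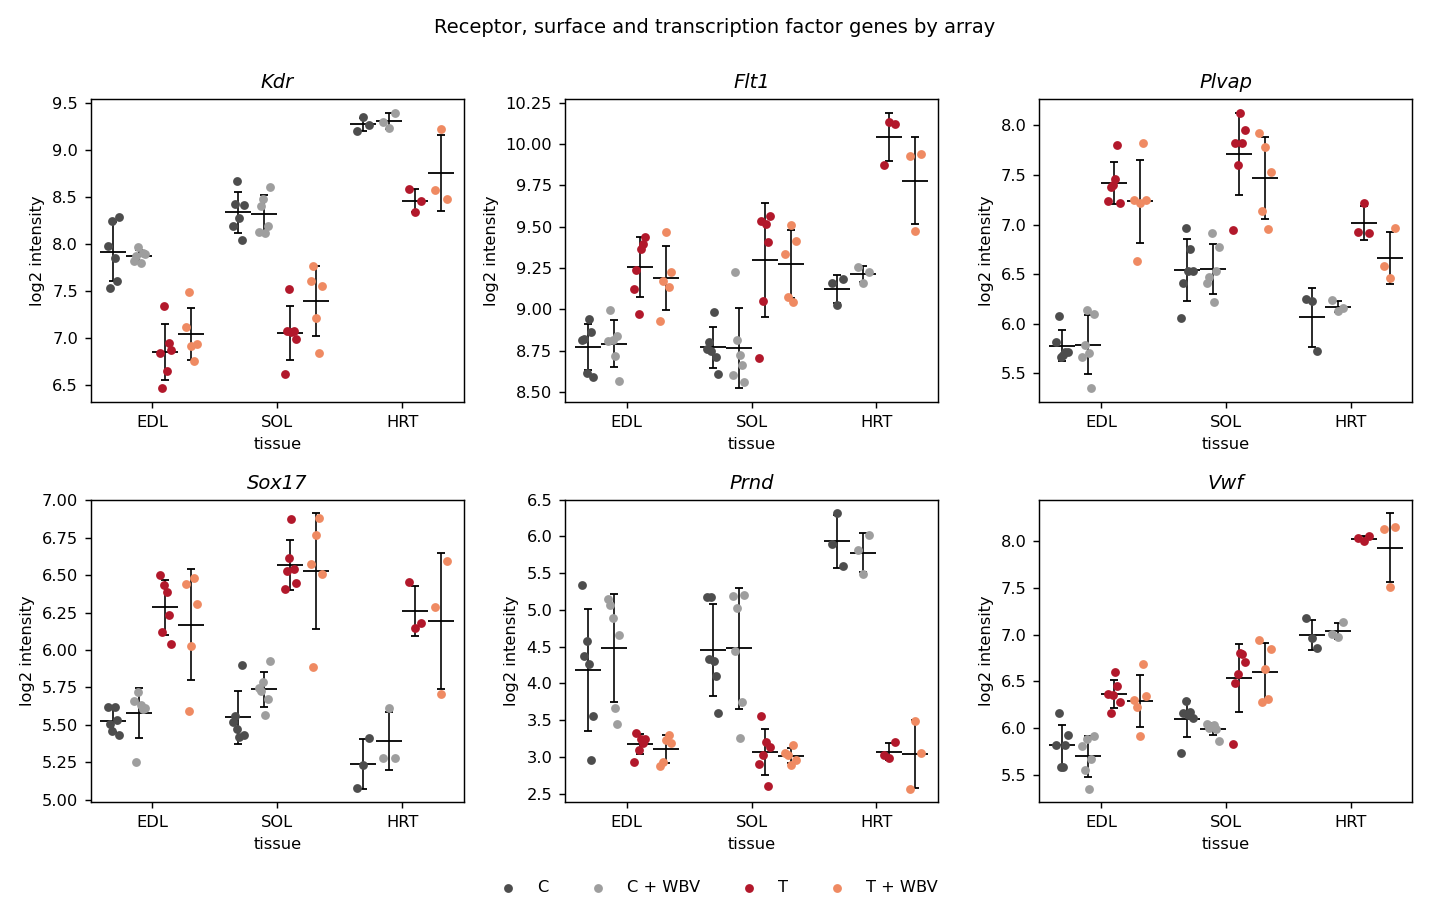
Log2 level of Kdr, Flt1, Plvap, Sox17, Prnd and Vwf in each array of EDL, SOL and heart in C, C + WBV, T and T + WBV, with the mean and SD. Kdr and Prnd lie lower and Flt1, Plvap and Sox17 higher in the tumour-bearing groups, and heart Prnd lies at 2.57 to 3.49 in both of them against 5.49 to 6.31 in the controls.

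The SOX factors of endothelium moved apart. Sox17, a factor of arterial identity, rose in all 3 tissues. In EDL it ran from 5.43 to 5.62 (median 5.52) in C and from 6.04 to 6.50 (median 6.31) in T, and in SOL from 5.42 to 5.90 (median 5.49) in C and from 6.41 to 6.88 (median 6.53) in T. Heart had 5.08, 5.23 and 5.41 in C and 6.45, 6.15 and 6.18 in T. In none of the tissues did the groups overlap. The rise was 1.69-fold in EDL (log2 fold change 0.76 ± 0.12 (SE), limma adjusted p = 3.62e-05), 2.03-fold in SOL (log2 fold change 1.02 ± 0.13 (SE), limma adjusted p = 6.80e-06) and 2.03-fold in heart (log2 fold change 1.02 ± 0.19 (SE), limma adjusted p = 0.00321). The heart call was lost without C replicate 1 or 2 or T replicate 1, 2 or 3 (adjusted p up to 0.0167). In trained mice EDL ran from 5.25 to 5.72 (median 5.62) in C + WBV and lay at 6.44, 5.59, 6.03, 6.48 and 6.31 in T + WBV (log2 fold change 0.59 ± 0.13 (SE), limma adjusted p = 0.00189), a call lost without T + WBV replicate 4, and with a fit of the compared groups alone (adjusted p up to 0.0147). SOL ran from 5.56 to 5.92 (median 5.74) and lay at 6.58, 5.89, 6.77, 6.88 and 6.51 (log2 fold change 0.79 ± 0.13 (SE), limma adjusted p = 0.000758), a call lost with a fit of the compared groups alone (adjusted p = 0.0124). Heart had 5.28, 5.61 and 5.28 and 6.29, 5.70 and 6.59 (log2 fold change 0.80 ± 0.19 (SE), limma adjusted p = 0.0228). In all 3 tissues T + WBV replicate 2 was the lowest of its group.

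Sox7, a relative of Sox17 in the same family, fell in EDL (log2 fold change -0.61 ± 0.16 (SE), limma adjusted p = 0.00346) and in heart (log2 fold change -0.66 ± 0.14 (SE), limma adjusted p = 0.00835). The EDL call was lost without C replicate 1 or T replicate 2 (adjusted p up to 0.0127), and the heart call without any 1 of the 6 arrays, and with 1 prior variance, a joint fit of the 58 arrays, a second quantile normalization or the replicate number as a block (up to 0.0409). In trained mice it fell in EDL (log2 fold change -0.83 ± 0.16 (SE), limma adjusted p = 0.000941) and SOL (log2 fold change -0.98 ± 0.17 (SE), limma adjusted p = 0.00104), the latter lost with a fit of the compared groups alone (adjusted p = 0.0149). Ets1, a factor of the ETS family, fell in heart (log2 fold change -0.66 ± 0.09 (SE), limma adjusted p = 0.000633) and there in the trained mice too (log2 fold change -0.59 ± 0.09 (SE), limma adjusted p = 0.00291). The latter call was lost without C + WBV replicate 1 or 3 or T + WBV replicate 1 or 3, and with a fit of the compared groups alone or a joint fit of the 58 arrays (up to 0.027). Erg and Sox18 did not pass in any tissue. The medians of the 5 factors were -0.05 (EDL), -0.17 (SOL) and -0.35 (heart).

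The 3 genes that keep blood fluid and vessels open were above C in all 3 tissues, with medians of 0.71, 0.88 and 0.48. Thbd, the thrombomodulin that turns thrombin toward protein C, rose in EDL (log2 fold change 0.71 ± 0.12 (SE), limma adjusted p = 7.13e-05), SOL (log2 fold change 0.90 ± 0.18 (SE), limma adjusted p = 0.000752) and heart (log2 fold change 0.51 ± 0.09 (SE), limma adjusted p = 0.00246). The heart call was lost without C replicate 2 or 3 or T replicate 2, and with a joint fit of the 58 arrays (adjusted p up to 0.172). Procr rose in EDL (log2 fold change 0.90 ± 0.14 (SE), limma adjusted p = 3.64e-05) and SOL (log2 fold change 0.88 ± 0.20 (SE), limma adjusted p = 0.00235), and in both muscles all T arrays lay above all C arrays. In heart Procr had 0.44 ± 0.18 (SE, adjusted p = 0.137). Nos3, the endothelial nitric oxide synthase, rose in SOL (log2 fold change 0.55 ± 0.14 (SE), limma adjusted p = 0.00429) and heart (log2 fold change 0.48 ± 0.10 (SE), limma adjusted p = 0.00671). Both calls for Nos3 were lost under several settings, the SOL call without C replicate 1, 4 or 5 or T replicate 2, 4 or 6, and with a fit of the compared groups alone, and the heart call without any 1 of the 6, and with 1 prior variance, a joint fit of the 58 arrays or the replicate number as a block (adjusted p up to 0.014 and 0.163). In trained mice Procr alone passed, in EDL (log2 fold change 0.90 ± 0.15 (SE), limma adjusted p = 0.00026). In SOL and heart 0 of these 3 passed there, with an unadjusted p below 0.05 for 2 in SOL and 3 in heart.

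The adhesion molecules of activated endothelium differed by tissue. Selp, stored in the same granules as Vwf and also in platelets, rose in EDL. There it ran from 3.91 to 4.98 (median 4.25) in C and from 5.13 to 5.56 (median 5.46) in T, without overlap. The rise was 2.06-fold (log2 fold change 1.04 ± 0.15 (SE), limma adjusted p = 1.19e-05). In SOL it ran from 5.07 to 5.62 (median 5.43) in C and from 5.05 to 5.79 (median 5.62) in T, which overlapped (log2 fold change 0.15 ± 0.17 (SE), limma adjusted p = 0.591). In heart it lay at 5.68, 4.28 and 6.47 in C and at 5.09, 5.63 and 5.37 in T, with C spread over more than the whole range of T (log2 fold change -0.12 ± 0.44 (SE), limma adjusted p = 0.913). In trained mice Selp rose in both muscles. EDL ran from 4.05 to 4.74 (median 4.21) in C + WBV and lay at 5.73, 5.49, 6.11, 5.79 and 5.73 in T + WBV (log2 fold change 1.45 ± 0.15 (SE), limma adjusted p = 1.61e-06), and SOL ran from 4.48 to 5.27 (median 5.12) and lay at 6.54, 5.82, 5.89, 5.46 and 5.54 (log2 fold change 0.84 ± 0.17 (SE), limma adjusted p = 0.00334). Neither muscle overlapped, and the SOL call was lost without T + WBV replicate 1 or 3, and with a fit of the compared groups alone, the replicate number as a block or the array name suffix as a covariate (adjusted p up to 0.0226). Heart had 4.06, 5.33 and 4.91 in C + WBV and 5.88, 5.13 and 5.90 in T + WBV (log2 fold change 0.87 ± 0.44 (SE), limma adjusted p = 0.286).

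Vcam1 fell in SOL. It ran from 5.45 to 5.92 (median 5.75) in C and from 4.67 to 5.37 (median 4.82) in T, without overlap. The fall was 1.78-fold (log2 fold change -0.83 ± 0.12 (SE), limma adjusted p = 4.43e-05). In EDL it ran from 4.91 to 5.39 (median 5.18) in C and from 4.75 to 5.29 (median 4.88) in T (log2 fold change -0.22 ± 0.12 (SE), limma adjusted p = 0.179), and in heart it lay at 7.11, 6.80 and 7.12 in C and at 7.10, 7.12 and 6.90 in T (log2 fold change 0.03 ± 0.10 (SE), limma adjusted p = 0.888). Both overlapped. In trained mice it passed in no tissue. SOL ran from 5.34 to 5.72 (median 5.43) in C + WBV and lay at 5.28, 5.63, 4.90, 5.03 and 5.33 in T + WBV (log2 fold change -0.25 ± 0.13 (SE), limma adjusted p = 0.262). EDL ran from 4.94 to 5.52 (median 5.21) and lay at 5.55, 5.33, 5.00, 5.08 and 5.25, and heart lay at 7.19, 7.25 and 7.16 and at 7.21, 7.03 and 7.14. Icam1, a ligand of white blood cell integrins, rose in EDL in T (log2 fold change 0.56 ± 0.11 (SE), limma adjusted p = 0.000214) and in T + WBV (log2 fold change 0.62 ± 0.11 (SE), limma adjusted p = 0.000425). Sele, the E-selectin, passed in no comparison of T against C. Some leukocyte markers rose in T too, where 10.7% (EDL), 5.06% (SOL) and 2.7% (heart) of all genes rose. Of the 8 measured of 10, 3 rose in EDL and in heart and 2 in SOL, led by S100a8 (2.07, 1.64 and 1.91) and S100a9 (1.14, 1.65 and 1.91), which neutrophils carry. Their summed level ran from 7.58 to 8.04 in C and from 8.14 to 10.10 in T of EDL, from 8.16 to 8.67 and from 8.46 to 9.07 in SOL, and from 8.95 to 9.80 and from 9.85 to 9.88 in heart. Their part in the changes of Selp, Icam1 and Pecam1 was not tested.

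**Figure D5:**
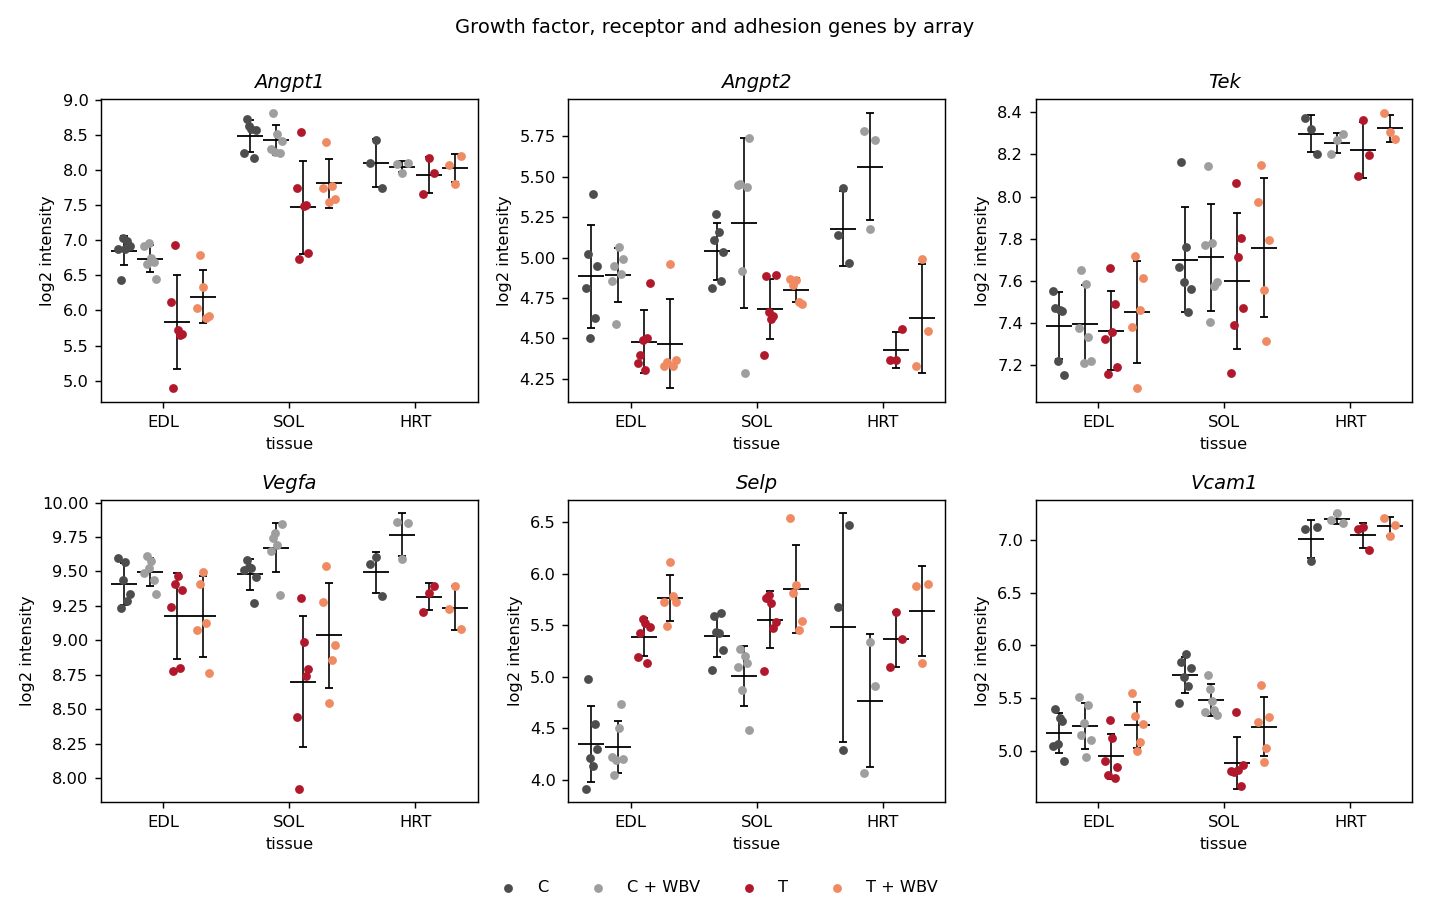
Log2 level of Angpt1, Angpt2, Tek, Vegfa, Selp and Vcam1 in each array of EDL, SOL and heart in C, C + WBV, T and T + WBV, with the mean and SD. Angpt1 spreads downward in T of both muscles, Selp lies higher in T and T + WBV of EDL, and Vcam1 lies lower in T of SOL.

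The tumour effect (T minus C) was then compared between tissues in the fit of all 58 arrays. Vcam1 differed between SOL and EDL by -0.61 ± 0.15 (SE, limma adjusted p = 0.00781) and between heart and SOL by 0.89 ± 0.18 (SE, limma adjusted p = 0.00165). Prnd differed between heart and EDL by -1.87 ± 0.45 (SE, limma adjusted p = 0.00534), where both falls are lower bounds and their difference is not a bound. T lay near background in both tissues, so the value for Prnd largely follows its higher level in heart of C. It is not shown to be a difference of the tumour effect. These were the only 3 differences among the 37 genes, 1 in each comparison, where 2.02%, 1.68% and 3.5% of all genes passed. None of them held throughout. The difference of Vcam1 between SOL and EDL was lost in 16 of 24 fits that left out 1 array (adjusted p up to 0.0217). That between heart and SOL was lost without heart C replicate 2 (0.0149) or heart T replicate 2 (0.0127). That of Prnd was lost without EDL C replicate 5 (0.0147) or any 1 of the 6 heart arrays of C and T (up to 0.024). For Kdr, Flt1, Plvap and Sox17 no difference of the tumour effect between tissues passed.

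Vibration training changed none of the 37 genes at the threshold. In T + WBV against T, in C + WBV against C and in the interaction of tumour and training, limma called 0 of them in each tissue, and 0% of all genes passed. Each alternative setting tried also gave 0. The lowest adjusted p of the 37 genes in T + WBV against T was 0.868 (EDL), 0.928 (SOL) and 0.544 (heart). At an unadjusted p below 0.05, which some of 37 genes reach by chance, the numbers were 2 (EDL), 3 (SOL) and 3 (heart). These were Selp and Vcam1 in EDL (log2 fold changes 0.38 and 0.29), Kdr, Nrp2 and Vcam1 in SOL (0.34, 0.36 and 0.34), and Icam2, Plvap and Flt1 in heart (0.32, -0.35 and -0.26). In C + WBV against C there were 1, 4 and 2 such genes, and in the interaction 1, 4 and 4. The share of all genes at this unadjusted threshold is not set beside these counts, so they show no training effect on the genes named. A call that passed in T against C and not in T + WBV against C + WBV is therefore not shown to differ between untrained and trained mice. The same holds for calls that passed only in the trained mice, such as Selp and Sox7 in SOL and Vegfa in heart. Such calls depend on the level of C + WBV as well as on that of T + WBV.

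Other genes of the vessel wall and of angiogenesis were taken from lists chosen by name in the same way. Rises and falls are those of T against C at the same threshold, with the median log2 fold change of EDL, SOL and heart in that order. In that comparison 22.4% (EDL), 13.7% (SOL) and 5.74% (heart) of all genes passed. No list was tested against these shares, and some counts lie near them. Of 25 other pan-endothelial genes, the rises and falls were EDL 4 and 4, SOL 3 and 4, heart 0 and 2 (medians 0.06, 0.01 and -0.05). Klf4, a flow-responsive factor, rose in both muscles (1.40 ± 0.29 (SE, adjusted p = 0.000477) and 1.62 ± 0.39 (SE, adjusted p = 0.00322)). Mef2c, a factor of muscle fibres and endothelium, fell in EDL (-1.39 ± 0.21 (SE, adjusted p = 2.52e-05)). Of 11 capillary genes of muscle, the rises and falls were EDL 4 and 2, SOL 3 and 2, heart 2 and 3 (medians 0.14, 0.02 and 0.04). Rgcc, which marks muscle capillaries, rose in EDL and SOL (1.48 ± 0.23 (SE, adjusted p = 3.32e-05) and 1.51 ± 0.24 (SE, adjusted p = 6.94e-05)).

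Of 14 arterial genes, the rises and falls were EDL 2 and 2, SOL 3 and 0, heart 2 and 0 (medians 0.02, 0.18 and 0.03). Sema3g, a semaphorin of arterial endothelium, rose in all 3 tissues (0.88, 1.04 and 0.86). Of 5 venous genes, the rises and falls were EDL 3 and 1, SOL 3 and 1, heart 1 and 1 (medians 0.49, 0.55 and 0.29). In that list Lrg1, a secreted glycoprotein that is also an acute phase protein, rose (1.93, 1.91 and 2.14). Aplnr, the apelin receptor, fell in all 3 tissues (-1.72 ± 0.27 (SE, adjusted p = 2.76e-05), -2.03 ± 0.29 (SE, adjusted p = 3.01e-05) and -2.91 ± 0.36 (SE, adjusted p = 0.000389)). Of 8 measured of 9 tip cell and apelin genes, the rises and falls were EDL 0 and 3, SOL 0 and 2, heart 0 and 4 (medians -0.23, -0.16 and -0.51). Apln, the ligand of that receptor, fell in each tissue (-0.67 ± 0.13 (SE, adjusted p = 0.000261), -0.55 ± 0.13 (SE, adjusted p = 0.00231) and -2.09 ± 0.22 (SE, adjusted p = 0.000149)). Plxnd1, a semaphorin receptor, fell in each as well (-0.81, -0.92 and -0.63).

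Of 10 measured of 11 other angiogenic ligands, the rises and falls were EDL 2 and 2, SOL 2 and 1, heart 2 and 1 (medians 0.01, -0.21 and 0.19). Pgf, placental growth factor, which binds FLT1 and not KDR, rose in all 3 tissues (0.96 ± 0.17 (SE, adjusted p = 9.98e-05), 0.89 ± 0.17 (SE, adjusted p = 0.000611) and 1.49 ± 0.22 (SE, adjusted p = 0.000973)). Vegfd, a ligand of FLT4, rose as well (2.42, 0.47 and 0.79 for EDL, SOL and heart). Of 7 measured of 8 inhibitors of angiogenesis, the rises and falls were EDL 1 and 1, SOL 0 and 2, heart 0 and 1 (medians -0.11, -0.14 and 0.43). Serpinf1, pigment epithelium-derived factor, led the falls in the muscles (-1.61 ± 0.39 (SE, adjusted p = 0.00204) and -2.11 ± 0.34 (SE, adjusted p = 8.25e-05)). Of 10 hypoxia response genes, the rises and falls were EDL 4 and 2, SOL 4 and 1, heart 1 and 0 (medians 0.20, 0.17 and 0.06). Hif3a, a member of the hypoxia-inducible factor family, rose in each tissue (1.66, 1.25 and 2.02).

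Markers of the other cells of the vessel and its surroundings are given in the same way, beside the same shares of all genes. Of 5 measured of 6 lymphatic markers, the rises and falls were EDL 0 and 0, SOL 0 and 0, heart 3 and 0, led by Lyve1 in heart (1.74 ± 0.21 (SE, adjusted p = 0.000389)), which some macrophages carry too. Their summed level on the log2 scale was 7.46 to 7.92 in C and 7.69 to 8.29 in T of EDL, 8.58 to 8.94 in C and 8.65 to 9.30 in T of SOL, 9.40 to 9.52 in C and 10.19 to 10.34 in T of heart. For the 0 of this list in EDL and SOL, 1 and 2 genes had an unadjusted p below 0.05. Of 8 pericyte markers, the rises and falls were EDL 0 and 1, SOL 0 and 1, heart 0 and 0. Cspg4, a proteoglycan of pericytes, fell in EDL and SOL (-0.55 and -0.50). Their summed level was 12.14 to 12.24 in C and 11.85 to 12.12 in T of EDL, 12.18 to 12.24 in C and 11.82 to 12.17 in T of SOL, 12.42 to 12.52 in C and 12.40 to 12.44 in T of heart. Of 6 smooth muscle markers, the rises and falls were EDL 0 and 1, SOL 0 and 1, heart 0 and 2, with Smtn, the smooth muscle protein smoothelin, lower in each tissue (-0.72, -0.86 and -0.80). Their summed level was 10.23 to 10.42 in C and 10.00 to 10.23 in T of EDL, 10.52 to 10.86 in C and 9.79 to 10.74 in T of SOL, 11.69 to 11.96 in C and 10.83 to 10.88 in T of heart. Of 7 fibroblast markers, the rises and falls were EDL 0 and 4, SOL 0 and 5, heart 4 and 0, with Col1a1, a chain of type I collagen, at -3.41 in EDL and -3.72 in SOL. Their summed level was 12.16 to 12.74 in C and 11.54 to 12.25 in T of EDL, 12.28 to 12.89 in C and 11.32 to 12.04 in T of SOL, 12.62 to 12.70 in C and 12.93 to 13.04 in T of heart. Of 2 measured of 6 erythroid markers none passed, with an unadjusted p below 0.05 for 0, 0 and 2 of them. The part of these cells in the changes of the 37 genes was not tested.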

How the data were processed

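RNA of EDL, SOL and heart was measured on 58 arrays of 23 mice. The authors processed the arrays with the robust multi-array analysis (RMA; version not given in the sources used here), and the deposited values are log2 intensity, from 0.667 to 13.55. RMA normalizes the arrays to one distribution, so each value is relative to the other genes of its array, and a change shared by most genes would not show. The deposited table has 35556 probe sets of the array's own annotation, whereas the methods of the paper describe a custom gene definition. Of the 23099 annotated probe sets, 21218 have a single symbol and 1881 several. The single-symbol probe sets were averaged into 18820 genes, and 0 symbols changed on matching to the reference. Where a sentence gives a level, it is this log2 intensity of a probe set, and different genes were not ranked by it.

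Linear models were fitted with limma 3.58.1 in R 4.3.3, 1 fit per tissue with its 4 groups, with a trended prior in place of the intensity-based moderated t-statistic of the methods, and p was adjusted over all genes with the Benjamini-Hochberg method (threshold 0.01). Tissues were compared in 1 fit of the 12 groups with the mouse as a random block (statmod 1.5.0, correlation 0.137). The scripts were tested on simulated data. The genes and lists, written from textbook knowledge, were chosen with earlier results of these data known. Values per array are given for the 4 largest changes of T against C in each tissue that passed and had the same sign in T + WBV against C + WBV, whether or not they passed there, for genes whose tumour effect differed between tissues, and for Vegfa, Kdr, Flt1, Angpt1, Angpt2 and Tek. Other members are given by count with up to 3 more values of a role group, and the pathway lists by count with up to 2 genes a list. A replicate number marks no matched mice between groups, so p-values treat the mice of a group as separate. The alternatives tried were leaving out each array in turn, 1 prior variance, a fit of only the groups compared, a joint fit of all arrays, a second quantile normalization, only genes above the median level, the brightest probe set of a gene, a covariate for a suffix of the array names, a block for the replicate number, and no mouse block. Promoter sequences are from RefSeq (GRCm38.p6).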

Additional observations from a re-analysis of the deposited data

Results flagged for a closer look

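In groups of 5 or 6 arrays, the gap between the farthest array and its nearest neighbour was compared with the range of the group for the 12 genes given array by array, and 10 of 96 groups had an array past the critical value. Chance flags about 1 in 20 groups. Angpt1 was low in EDL C replicate 2 (6.44, nearest 6.87, gap over range 0.73) and high in SOL T + WBV replicate 2 (8.40, nearest 7.77, gap over range 0.744). Angpt2 was high in EDL T replicate 6 (4.85, nearest 4.50, gap over range 0.638) and in EDL T + WBV replicate 3 (4.96, nearest 4.37, gap over range 0.937). Sox17 was low in EDL C + WBV replicate 2 (5.25, nearest 5.61, gap over range 0.764) and high in SOL C replicate 5 (5.90, nearest 5.56, gap over range 0.707). Vcam1 was high in SOL T replicate 3 (5.37, nearest 4.86, gap over range 0.722). Vwf was low in SOL C replicate 1 (5.73, nearest 6.10, gap over range 0.659), in SOL C + WBV replicate 6 (5.86, nearest 5.99, gap over range 0.716) and in SOL T replicate 1 (5.83, nearest 6.48, gap over range 0.668).

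The tumour effect differed between tissues for Vcam1, by -0.61 on the log2 scale between SOL and EDL and by 0.89 between heart and SOL. For Prnd the fitted difference was -1.87 between heart and EDL. Prnd lay near background in T of both tissues, so its value is not shown to be a difference of the tumour effect. Each of these 3 differences passed in limma with all arrays and was lost when certain single arrays were left out, as given with the comparison.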

How the results depend on the processing

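No called fold change of a member turned its sign under any setting. Among values of T against C that were not called, the sign turned in 5 of 489 under other settings and in 30 of 642 when 1 array was left out. Of the 558 values of called genes under settings other than leaving out an array, 509 held their call and 49 lost it. Leaving out 1 array kept 608 of 740. The members of T against C called in every setting that included them were 15 of 17 in EDL, 11 of 15 in SOL and 5 of 14 in heart (Icam2, Vwf, Prnd, Flt1 and Ets1). Those of T + WBV against C + WBV were 10 of 14, 2 of 8 (Esam and Kdr) and 1 of 5 (Prnd). Prnd, and Selp in EDL, were not included in the setting with only genes above the median level. Counts of members moved by over 1.5 times as follows, and the cause was not tested. For T + WBV against C + WBV in SOL, the 5 rises became 1 with only the groups compared, 8 with all arrays in 1 fit and 2 with the covariate for the array name suffix, and the 3 falls became 1 and 5 under the first 2 of these. In heart, the 1 rise became 0 with 1 prior variance, 0 with only the groups compared, 2 with all arrays in 1 fit, 2 with the second quantile normalization, 3 with only genes above the median level over all arrays of the tissue and 2 with the brightest probe set. Of the 37 genes, 33 (EDL), 34 (SOL) and 33 (heart) lay above that median. The 4 falls in heart became 2 with 1 prior variance, 1 with only the groups compared and 2 with the second quantile normalization. The 8 falls of T against C in heart became 4 with 1 prior variance. For T + WBV against C, the 6 in SOL became 12 with all arrays in 1 fit, and the 7 in heart became 3 with 1 prior variance, 1 with only the groups compared and 4 with all arrays in 1 fit. The 1 difference of the tumour effect between SOL and EDL became 0 without the mouse block, and that between heart and EDL became 0 without the mouse block and 0 with only genes above the median level.

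Leaving out 1 array gave these ranges of counts. In T against C, rises were 10 to 12 (EDL), 6 to 11 (SOL) and 2 to 4 (heart), and falls 5 to 7, 5 to 7 and 3 to 4. In T + WBV against C + WBV, rises were 7 to 11, 2 to 7 and 0 to 7, and falls 3 to 5, 2 to 5 and 1 to 10. In T + WBV against C, counts were 9 to 17, 3 to 10 and 1 to 16. The training comparisons and the interaction stayed at 0 to 0. Between tissues in C, counts were 7 to 8 (SOL and EDL), 27 to 30 (heart and EDL) and 21 to 25 (heart and SOL), and for the tumour effect 0 to 1, 0 to 2 and 0 to 1.

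Replicate numbers did not pair the samples. Of 56 pairs of arrays with the same number, 7 correlated above 0.1 (r from -0.42 to 0.40), and in 0 of 12 comparisons did all pairs. With the replicate number as a block, T against C gave 11 rises and 7 falls for EDL, 8 and 7 for SOL, and 5 and 6 for heart. T + WBV against C + WBV gave 9 and 4, 4 and 3, and 1 and 2, T + WBV against C gave 10, 6 and 4, and the training comparisons and the interaction gave 0. With 3 hearts a group, an exact permutation test cannot go below p = 0.1, so heart calls rest on the spread shared across genes.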
